A study of Mus musculus with 12 samples.

Results

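The S100 genes encode small calcium-binding proteins, and 10 of them, S100a3, S100a4, S100a6, S100a7a, S100a8, S100a9, S100a10, S100a11, S100a14 and S100a16, were followed by symbol among the 34303 gene symbols of the series. Each of the 10 had 1 entry in the table, and all were tested. Expression was measured by RNA sequencing in 12 libraries of C57Bl6 mice, from UV-induced cutaneous squamous cell carcinoma (cSCC) and from dorsal skin. The TAp63-/- cSCC group (n = 4) came from mice lacking TAp63, the p63 isoforms with the N-terminal transactivation domain, and the WT cSCC group (n = 2) from wild-type mice, all older than 35 weeks after chronic ultraviolet exposure (2.5 kJ/m2 per dose, 3 doses weekly). The TAp63-/- skin (n = 3) and WT skin (n = 3) groups came from mice of 4 weeks that were shaved and left untreated. The labels name the TAp63-/- genotype without saying how the allele was made. Each library title carries its own code, but no label says whether a code stands for a separate mouse. The p-values thus measure only the spread between these samples, which may be technical.

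S100 proteins carry a pair of EF-hand calcium-binding loops and mostly act as dimers. When calcium rises they expose a surface that binds partner proteins such as annexins. S100A8 and S100A9 pair as calprotectin, which neutrophils store in bulk and stressed keratinocytes switch on, and which binds zinc and manganese and signals through TLR4 and RAGE when released. In skin the family is known for the cornified envelope, the hair cuticle and psoriasis, and most of its genes flank the epidermal differentiation complex.

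All 10 genes lie on chromosome 3 (mm10). A stretch of 168.9 kb from 90526849 to 90695721 holds 8 of them in the order S100a14, S100a16, S100a3, S100a4, S100a6, S100a7a, S100a8 and S100a9. The genes S100a11 and S100a10 stand 2.82 Mb away, from 93520488 to 93564643, with the epidermal differentiation complex between. S100a9 (ENSMUSG00000056071, 90692632 to 90695721) is on the minus strand and its partner S100a8 (ENSMUSG00000056054, 90669071 to 90670034) on the plus strand. S100a11 is ENSMUSG00000027907 (93520488 to 93526287), S100a10 is ENSMUSG00000041959 (93555080 to 93564643), S100a4 is ENSMUSG00000001020 (90603770 to 90606045) and S100a3 is ENSMUSG00000001021 (90600215 to 90602702). The others are S100a14 (ENSMUSG00000042306, 90526849 to 90528837), S100a16 (ENSMUSG00000074457, 90537254 to 90543151), S100a6 (ENSMUSG00000001025, 90612894 to 90614414) and S100a7a (ENSMUSG00000063767, 90654302 to 90658130). The spans of S100a3 and S100a4 both overlap a GENCODE model, Gm42674, on the same strand, so reads of these neighbours could be split between them.

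The promoter windows of S100a8 and S100a9 are shown because these genes rose together, and that of S100a11 because it was the most abundant member. Each window is RefSeq sequence (GRCm38.p6), 5′ to 3′ on the gene's strand, from 250 bases before to 50 bases after the start site, at chr3:90668821-90669120 (plus), chr3:90695672-90695971 (minus) and chr3:93520246-93520545 (plus). Capitals mark matches to a C/EBP motif (TTNNGNAA) or an AP-1 motif (TGANTCA), on either strand.
S100a8: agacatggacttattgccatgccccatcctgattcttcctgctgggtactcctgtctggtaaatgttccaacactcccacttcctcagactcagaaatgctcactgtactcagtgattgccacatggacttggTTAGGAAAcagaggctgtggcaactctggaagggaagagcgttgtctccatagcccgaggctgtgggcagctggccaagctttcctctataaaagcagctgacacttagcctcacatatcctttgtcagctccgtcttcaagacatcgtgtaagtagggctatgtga
S100a9: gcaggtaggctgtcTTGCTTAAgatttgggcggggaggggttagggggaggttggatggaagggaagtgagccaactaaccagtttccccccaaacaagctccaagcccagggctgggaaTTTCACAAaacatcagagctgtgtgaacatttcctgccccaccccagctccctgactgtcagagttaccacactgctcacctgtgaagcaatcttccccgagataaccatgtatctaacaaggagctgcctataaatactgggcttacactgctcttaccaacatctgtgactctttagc
S100a11: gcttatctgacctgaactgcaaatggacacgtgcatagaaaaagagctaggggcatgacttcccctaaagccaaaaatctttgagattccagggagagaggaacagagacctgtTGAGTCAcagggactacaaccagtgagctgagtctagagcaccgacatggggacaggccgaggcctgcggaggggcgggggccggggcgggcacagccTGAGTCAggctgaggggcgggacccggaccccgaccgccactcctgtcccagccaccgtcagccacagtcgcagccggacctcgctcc

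The S100a8 window held 1 C/EBP match and the S100a9 window held 2, while S100a11 held 2 AP-1 matches. Of 32851 windows of 300 bases, 40.7% held the C/EBP motif and 7.81% the AP-1 motif, so a C/EBP match is common. The 12 windows of the 8 members that matched the table held the AP-1 motif in 2, the other being S100a16, and the C/EBP motif in 4, of which S100a3 held the other 2. A STAT motif (TTCNNNGAA, in 8.3% of windows) was found in S100a7a, and a p53-family half-site (8.36% of windows) in S100a3 and S100a9. These matches are descriptions of the letters and not of binding.

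Levels are in FPKM, read fragments per length of transcript and library size, which allows levels of different genes to be set side by side. The columns share 1 distribution, so an FPKM also gives the gene's approximate rank within its library. S100a11 was the most abundant member by its median over the 12 libraries, at 2419 FPKM, and ranked between 16 and 71 among all genes in every library. S100a6 (465.4 FPKM), S100a4 (311.7), S100a10 (255.0), S100a8 (221.2), S100a14 (208.2) and S100a16 (181.6) followed by median, with ranges that overlap those of their neighbours. S100a9 (67), S100a3 (27.04) and S100a7a (10.18) had the lowest medians. S100a8 spanned 4.33 to 15539 FPKM, between rank 9589 and rank 5, and S100a9 spanned 1.25 to 5585 FPKM, between rank 12665 and rank 13.

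**Figure D1:**
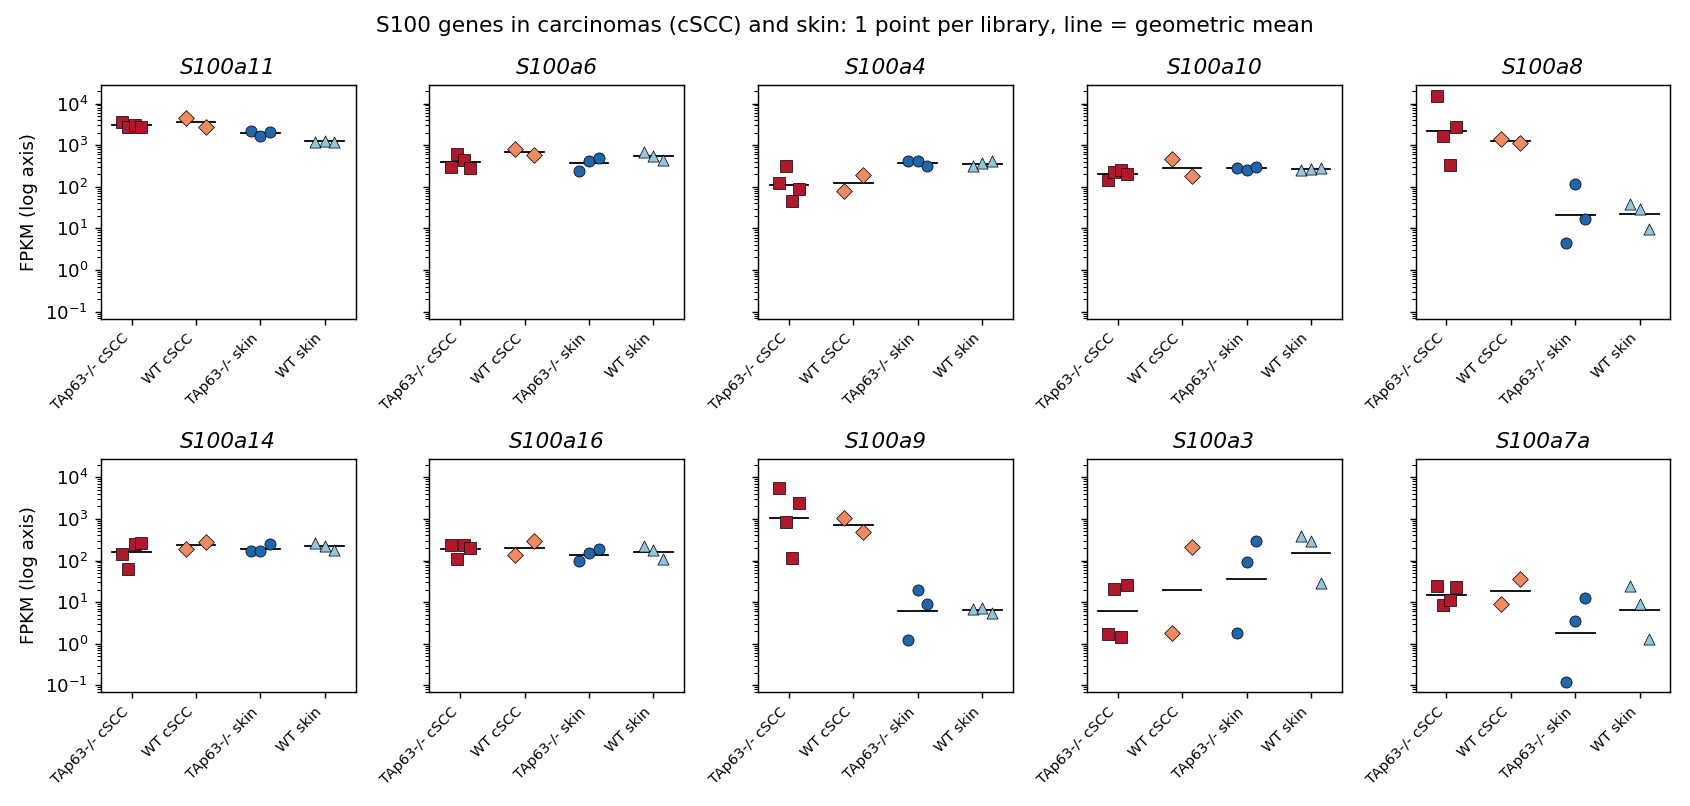
FPKM (log axis) of the 10 members in each library, 1 panel per gene and 1 point per library, with a line at the geometric mean of each group. S100a8, S100a9 and S100a11 have all 6 tumour libraries above all 6 skin libraries, and S100a3 spans 1.45 to 396 FPKM over the libraries of both tissues. Within a genotype, tumour and skin did not overlap for 34.0% of all genes tested in TAp63-/- and 52.8% in WT.

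Tumours differed from skin in the make-up of S100 expression. The 10 members together took 3.31%, 0.842%, 0.598% and 1.14% of the summed FPKM in TAp63-/- cSCC and 1.11% and 0.782% in WT cSCC, against 0.431%, 0.42% and 0.51% in TAp63-/- skin and 0.43%, 0.411% and 0.345% in WT skin. S100a8 and S100a9 made up 9.48% to 81.9% of the members' sum in the tumours and 0.166% to 4.09% in skin. In skin the largest member was S100a11, with 35.26% to 64.09% of the members' sum.

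**Figure D2:**
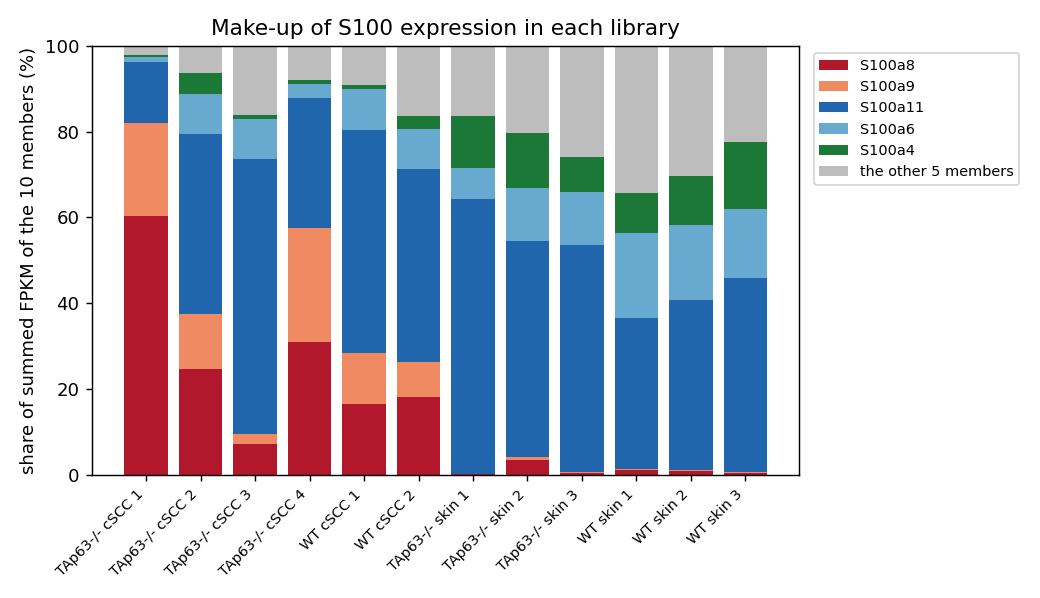
Share of the summed FPKM of the 10 members taken by each gene (%), 1 bar per library. S100a8 and S100a9 (red and orange) take 81.9% in TAp63-/- cSCC replicate 1 and at most 4.09% in any skin library.

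The tests asked which members differ between tumour and skin within a genotype, and between genotypes within a tissue. With limma at an adjusted p below 0.05, TAp63-/- cSCC against TAp63-/- skin called 2 members higher, S100a8 and S100a9, and 1 lower, S100a4, while 7 did not pass. In that comparison 27.2% of the 14752 genes tested were called, 13% higher and 14.2% lower. WT cSCC against WT skin called 3 members higher, S100a8, S100a9 and S100a11, and 0 lower, where 11.4% of all genes were called, 4.66% higher and 6.77% lower; without WT cSCC replicate 1, 0 members passed. These shares of all genes also belong beside the counts of every gene list given further on. The median log2 change of the 10 members was 0.243 for TAp63-/- and 0.309 for WT, beside 0.0962 and 0.0407 over all genes. In bulk tissue, fewer cells of a type and less RNA per cell cannot be told apart. The tumours came from older, irradiated mice and the skin from young, untreated ones, so tumour, age and irradiation cannot be told apart. Sex cannot be told apart from tissue in WT at all, and in TAp63-/- only through 1 library. By Xist and Y-linked genes, TAp63-/- cSCC replicate 1 and all 6 skin libraries read as male, and 5 tumours read as female.

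**Figure D3:**
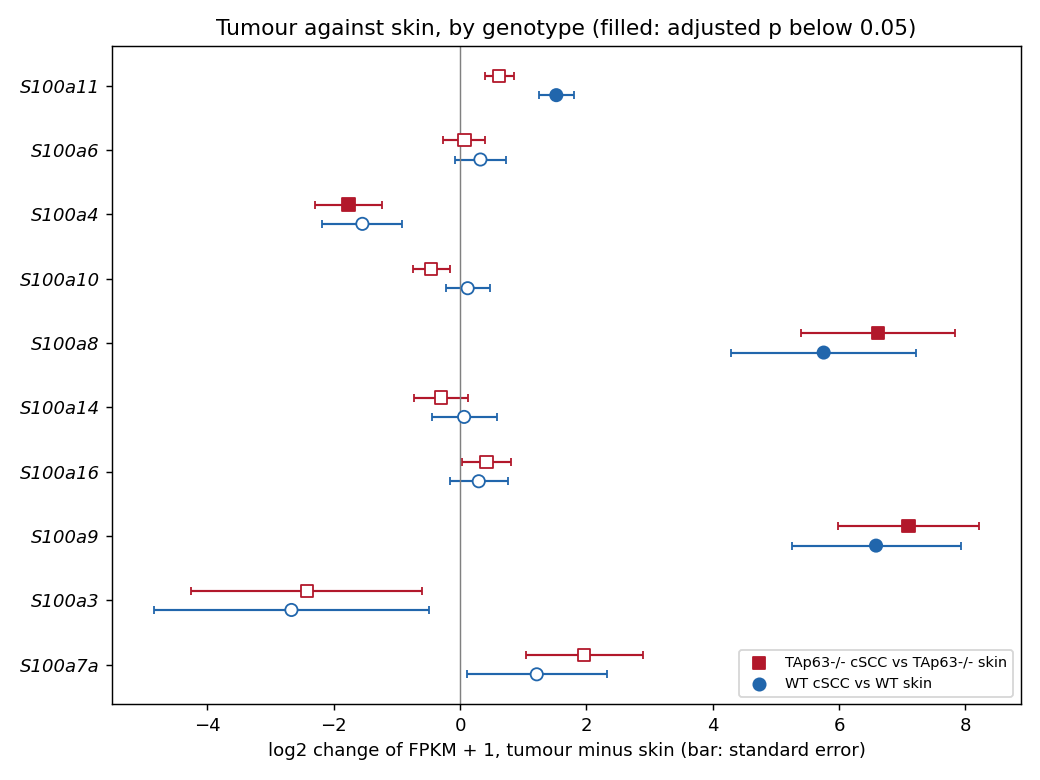
Log2 change of FPKM + 1, tumour minus skin, for each member in TAp63-/- (squares) and WT (circles), with standard errors; filled symbols have an adjusted p below 0.05. The changes of S100a8 and S100a9 lie between 5.76 and 7.10, and the other members lie between -2.67 and 1.97.

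S100a8, the calprotectin subunit that is unstable without its partner, had 15539, 1620, 328 and 2748 FPKM in TAp63-/- cSCC, against 4.33, 114 and 17.1 FPKM in TAp63-/- skin. WT cSCC had 1426 and 1101 FPKM, against 38.5, 29.1 and 9.52 FPKM in WT skin. No tumour value overlapped a skin value, as held between tumour and skin for 34.0% of all genes tested in TAp63-/- and 52.8% in WT, and TAp63-/- cSCC replicate 1 stood far above the other tumours. S100a8 rose in TAp63-/- tumours by a log2 change of 6.61 (SE 1.22, adjusted p = 0.00283, and 5.58 to 7.80 with any 1 TAp63-/- library left out) and in WT tumours by 5.76 (SE 1.46, adjusted p = 0.0294). The WT call rested on every library: leaving out any 1 of the 5 gave adjusted p-values of 0.0535 to 0.162, with changes of 5.19 to 6.14.

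S100a9, the subunit that binds zinc and manganese together with S100A8, had 5585, 846, 114 and 2358 FPKM in TAp63-/- cSCC, against 1.25, 19.6 and 9.14 FPKM in TAp63-/- skin. WT cSCC had 1032 and 497 FPKM, against 6.65, 7.24 and 5.63 FPKM in WT skin. Again the tissues did not overlap in either genotype, the same shares of all genes applying, and TAp63-/- cSCC replicate 3 was the lowest tumour for both subunits. S100a9 rose by 7.10 in TAp63-/- tumours (SE 1.12, adjusted p = 0.00108) and by 6.58 in WT tumours (SE 1.34, adjusted p = 0.011, and 0.101 without WT cSCC replicate 1). With sex as a covariate, the S100a8 change was 9.44 in TAp63-/- and 9.53 in WT tumours, and the S100a9 change was 9.49 in TAp63-/- and 9.77 in WT tumours. That covariate is set by TAp63-/- cSCC replicate 1 alone, the highest library for both genes, and so is no independent check. The difference between the S100a9 changes without the covariate was 0.51 (SE 1.74, adjusted p = 1), and that for S100a8 was 0.86 (SE 1.91, adjusted p = 1).

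The 2 subunits went together over the 12 libraries once group means were taken off, but their spread was not alike in each group. In WT skin S100a8 spanned 9.52 to 38.5 FPKM and S100a9 only 5.63 to 7.24 FPKM. The TAp63-/- groups had the widest spread of both genes and so weigh most in the pooled r. After the 4 group means of log2(FPKM + 1) were subtracted, Pearson's r of S100a8 with S100a9 was 0.919 over the 12 libraries, the highest of all member pairs. The next pairs were S100a7a with S100a16 (0.84), S100a3 with S100a7a (0.777) and S100a14 with S100a16 (0.775). These r describe libraries that share 1 normalization. The ratio of S100a8 to S100a9 FPKM was 2.78, 1.92, 2.86 and 1.17 in TAp63-/- cSCC, against 3.46, 5.85 and 1.87 in TAp63-/- skin. It was 1.38 and 2.21 in WT cSCC, against 5.79, 4.02 and 1.69 in WT skin, so S100a8 exceeded S100a9 in every library and the tissues overlapped.

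Neutrophil markers were read beside calprotectin. Of 12 markers, 5 were tested; in TAp63-/- tumours 3 rose, Cxcr2 (log2 change 2.49, adjusted p = 0.000123), Csf3r (1.61, adjusted p = 0.0296) and Mmp9 (3.04, adjusted p = 0.0321), and 0 fell. In WT tumours Cxcr2 alone rose (2.33, adjusted p = 0.00196), while Mmp9 (2.88) and Csf3r (1.47) did not pass. The summed FPKM of the list was 23.1 to 146 in tumours and 6.29 to 18.0 in skin. Its defining marker Ly6g was at most 0.893 FPKM and was listed at 0 in TAp63-/- cSCC replicate 3 and WT cSCC replicate 2. Cxcr2 had 3.68 and 4.82 FPKM in those 2 libraries, against at most 0.517 FPKM in any skin library. TAp63-/- cSCC replicate 1, with the highest S100a8, had a neutrophil sum of 28.2 FPKM, against 141, 58.3 and 146 FPKM in the other TAp63-/- tumours. Most of that gap was Mmp9, which other cells also make, with 8.86 FPKM in replicate 1 against 93.1, 46.8 and 131 FPKM. Cxcr2 had 8.56, 9.06, 3.68 and 5.68 FPKM and Csf3r 6.13, 15.8, 2.49 and 5.35 FPKM in replicates 1 to 4, so that replicate 1 was the second highest for each. The remaining tested markers, Retnlg and Mmp8, are named after their values were seen. Retnlg had 1.15, 19.4, 4.41 and 2.62 FPKM, lowest in replicate 1. Mmp8 had 1.14, 1.93, 0.595 and 0.37 FPKM, with replicate 1 again the second highest. With group means subtracted, r of the neutrophil list mean was -0.05 with S100a8 and 0.112 with S100a9 (12 libraries). That mean is over all 12 markers, also those too low to be tested, and r over the 5 tested markers alone was not computed.

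Wound keratinocyte genes rose with calprotectin between tissues. Of 6 markers 5 rose in both genotypes and 0 fell, among them Krt16 by 7.29 in TAp63-/- and 7.06 in WT tumours (adjusted p = 1.86e-05 and 0.000309) and Krt6b by 8.74 and 8.85 (adjusted p = 2.07e-05 and 0.00029). The list's mean log2(FPKM + 1) was 10.02 to 11.6 in tumours and 3.07 to 5.83 in skin, and its r within groups was 0.645 with S100a8 and 0.531 with S100a9. For S100a9, r was also 0.562 with the Langerhans and dendritic list, 0.482 with the fused S100 genes and -0.736 with the basal keratinocyte list. The same lists gave 0.422, 0.528 and -0.699 for S100a8. The part of neutrophils and of keratinocytes in the calprotectin rise was not tested. The genes most like S100a8 of 9110 searched were Srsf11 (0.94), Zfp523 (0.91) and Tfap2a (0.894). Those most like S100a9 were Sprr2d (0.949), a cornified envelope gene and itself 1 of the 6 wound markers, Adam10 (0.934), a membrane protease gene, and Tenm3 (0.928). The highest r of 9110 genes over 12 libraries can be large through the search alone. No chance level was computed, here or for the other members, so these lists do not show shared regulation.

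Cytokines that are known to switch on S100 genes in keratinocytes were higher in tumours. Of 8 tested, 4 rose in TAp63-/- tumours and 0 fell, led by Il1a (2.32, adjusted p = 0.000124), Il1b (3.26, adjusted p = 0.00298) and Il36g (1.91, adjusted p = 0.0136), the last an epidermal alarmin of psoriasis. In WT tumours 3 rose and 0 fell, Il1a (2.94, adjusted p = 0.00044), Il1b (3.10, adjusted p = 0.0212) and Il36a (3.49, adjusted p = 0.0474). The list medians were 1.80 and 1.76, beside 0.0962 and 0.0407 over all genes. Il36a also rose in TAp63-/- tumours (3.27, adjusted p = 0.0159). Among TAp63-/- tumours, Il36a had 120, 13.4, 11.3 and 47.1 FPKM and Il36g had 122, 27.9, 36.1 and 87.9 FPKM, so replicate 1, the highest for S100a8, was also the highest for both. Il1a (18.4, 9.02, 14.7 and 16.3 FPKM) and Il36b (47.2, 13.3, 11.7 and 38.3 FPKM) were highest in replicate 1 as well. So were Tnf (2.985, 2.883, 1.386 and 2.414 FPKM) and Il17a, Il17f and Il22, at most 2.58 FPKM in these tumours. The remaining cytokines present, Il1b, Il6 and Osm, had another order. Il1b had 13.5, 74.3, 9.68 and 29.6 FPKM, and Il6 had 0.416, 1.197, 1.73 and 1.48 FPKM. Il36b, Tnf, Il17a, Il17f, Il22, Il6 and Osm are named after their values were seen. Osm had 0.4, 2.85, 0.371 and 1.18 FPKM in the same libraries. With group means subtracted, r of the cytokine list mean with S100a9 was 0.91 and with S100a8 0.755 (12 libraries). That mean is over the 11 cytokines present and not only the 8 tested.

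**Figure D4:**
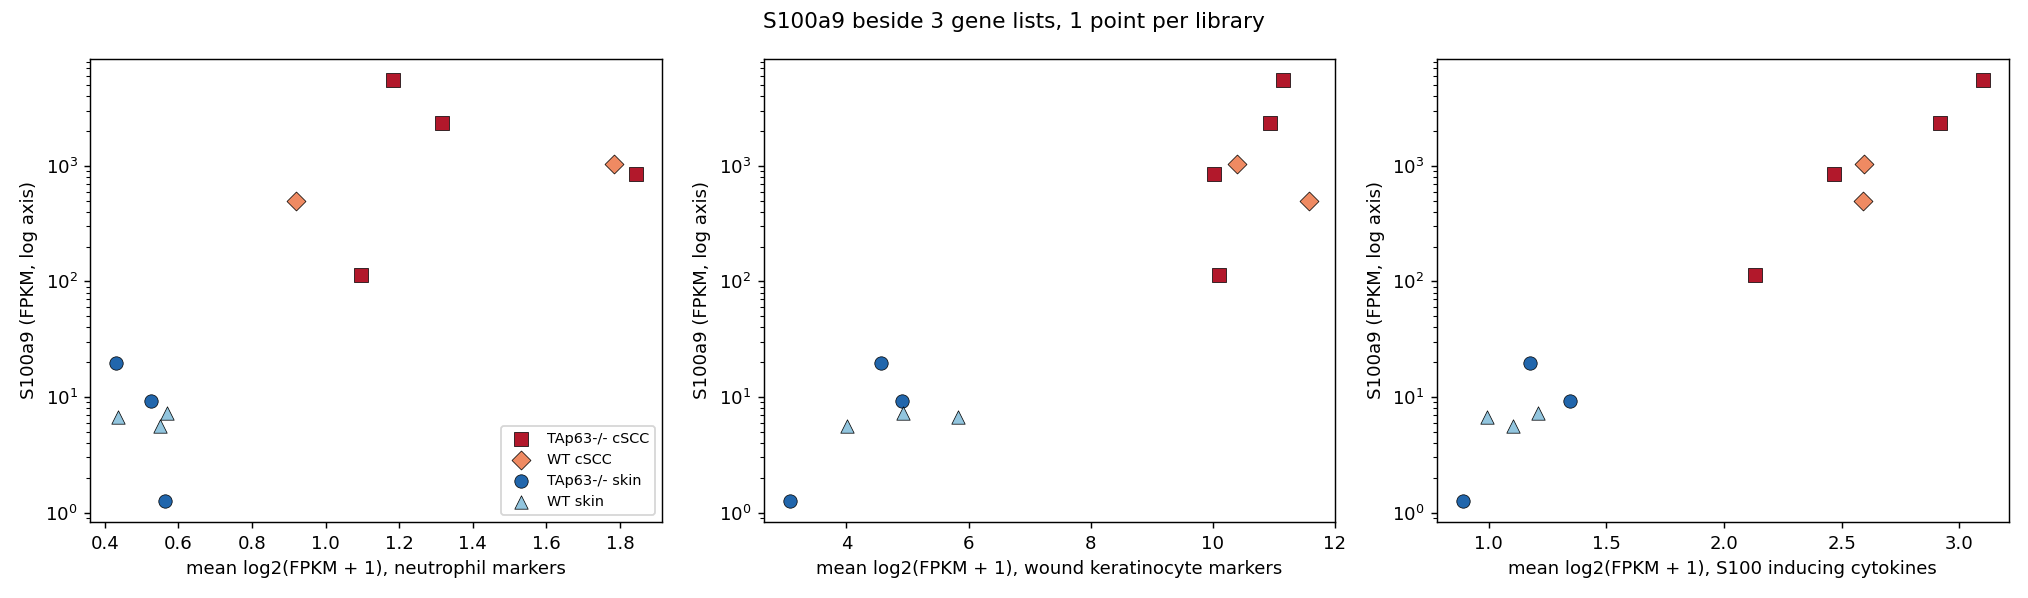
S100a9 (FPKM, log axis) against the mean log2(FPKM + 1) of neutrophil markers, wound keratinocyte markers and cytokines that induce S100 genes, 1 point per library. Tumours lie above skin in all panels. With group means subtracted r is 0.91 with the cytokine list, 0.531 with the wound list and 0.112 with the neutrophil list. Of lists not drawn, the Langerhans and dendritic list has 0.562 and the basal keratinocyte list -0.736.

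The receptors of released S100 proteins were called at a share near that of all genes (27.2%) in TAp63-/- tumours. Of 6 tested, 1 rose in TAp63-/- tumours, Myd88, the adaptor of TLR4 (0.64, adjusted p = 0.0234), and 1 fell, the fatty acid receptor Cd36 (-3.15, adjusted p = 0.0102); Cd14, a TLR4 co-receptor, did not pass (1.19, adjusted p = 0.0927). In WT tumours 0 of 6 passed. Ager, which encodes RAGE, had at most 0.89 FPKM in any library and was not tested; it is named for its role, after its values were seen.

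S100a11, an annexin A1 partner that is crosslinked into the cornified envelope, had 3696, 2748, 2994 and 2685 FPKM in TAp63-/- cSCC, against 2154, 1651 and 2103 FPKM in TAp63-/- skin. WT cSCC had 4510 and 2748 FPKM, against 1184, 1269 and 1220 FPKM in WT skin. All tumours were above all skin libraries, and the share of all genes that do so was not computed. Within a genotype, tumour and skin did not overlap for 34.0% of all genes tested in TAp63-/- and 52.8% in WT. The WT skin values of S100a11 lay within 7.1% of each other at most. S100a11 rose in WT tumours by 1.52 (SE 0.27, adjusted p = 0.00648, and 0.0696 without WT cSCC replicate 1), and the change in TAp63-/- tumours was 0.62 (SE 0.23, adjusted p = 0.0668, and 0.041 with array weights). The genes most like it within groups were Tesk1 (0.963), Cuedc1 (0.958) and Gmpr (0.957).

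S100a11 was also the 1 member whose genotypes did not overlap in skin. TAp63-/- skin averaged 1969 ± 277 FPKM and WT skin 1224 ± 42.4 FPKM (SD, n = 3 each), a log2 change of 0.68 (SE 0.18, adjusted p = 0.923) that did not pass. Among all genes tested, 10.6% did not overlap between these groups. The difference between the tumour changes of the genotypes was -0.90 (SE 0.36, adjusted p = 1).

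S100a10, which pairs with annexin A2 to bind plasminogen at the cell surface, did not pass in any comparison. It had 143, 221, 258 and 197 FPKM in TAp63-/- cSCC, against 288, 246 and 293 FPKM in TAp63-/- skin (log2 change -0.45, SE 0.29, adjusted p = 0.272). WT cSCC had 456 and 183 FPKM, one above and the other below the 252, 263 and 282 FPKM of WT skin (0.12, SE 0.35, adjusted p = 0.86). Skin libraries of both genotypes stayed within 246 to 293 FPKM, the narrowest skin range among the members as a ratio of highest to lowest. The genes most like it were Vdac3 (0.975), Stk3 (0.952) and Hmga2 (0.948).

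S100a4, a motility protein of fibroblasts and leukocytes that binds non-muscle myosin, had 120, 315, 44.8 and 89.0 FPKM in TAp63-/- cSCC, against 407, 419 and 322 FPKM in TAp63-/- skin. WT cSCC had 79.3 and 191 FPKM, against 308, 366 and 419 FPKM in WT skin. The groups did not overlap within either genotype (34.0% and 52.8% of all genes), and TAp63-/- cSCC replicate 2 came nearest to skin. S100a4 fell by 1.77 in TAp63-/- tumours (SE 0.53, adjusted p = 0.0311), and its change in WT tumours was -1.55 (SE 0.63, adjusted p = 0.139). The TAp63-/- call was lost when any 1 of replicates 3 and 4 of the tumours or any 1 of the 3 skin libraries was left out (adjusted p = 0.0584 to 0.0914), and with the sex covariate (adjusted p = 0.224). The TAp63-/- change itself stayed between -2.26 and -1.33 in all settings tried.

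S100a4 was read beside the cell types that carry it. Of 8 fibroblast markers 6 fell in TAp63-/- tumours and 0 rose, led by Dcn (-4.19, adjusted p = 7.17e-05), Dpt (-3.34, adjusted p = 0.0013) and Lum (-2.84, adjusted p = 0.00158); in WT tumours 3 fell, Dcn, Dpt and Lum, and 0 rose. Of 10 monocyte and macrophage markers 1 fell in TAp63-/- tumours, the mannose receptor Mrc1 (-1.64, adjusted p = 0.041), and 0 passed in WT tumours. The summed FPKM was 800 to 2616 in tumours and 2417 to 8783 in skin for fibroblast markers, and 121 to 667 and 221 to 468 for macrophage markers. With group means subtracted, r of S100a4 was 0.933 with the macrophage list mean and 0.727 with the fibroblast list mean (12 libraries). It was also 0.894 with the S100 receptor list, 0.819 with the Langerhans and dendritic list, 0.785 with the T cell list and 0.781 with the skeletal muscle list. With the adipocyte list it was 0.695, and with the further S100 genes 0.642. The 3 genes most like S100a4 of 9110 searched were Igtp (0.977), H2-DMb1 (0.976) and Cd52 (0.975), an interferon-induced GTPase, a peptide-loading protein of class II and a leukocyte surface protein. The part of these cells in the fall of S100a4 was not tested.

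**Figure D5:**
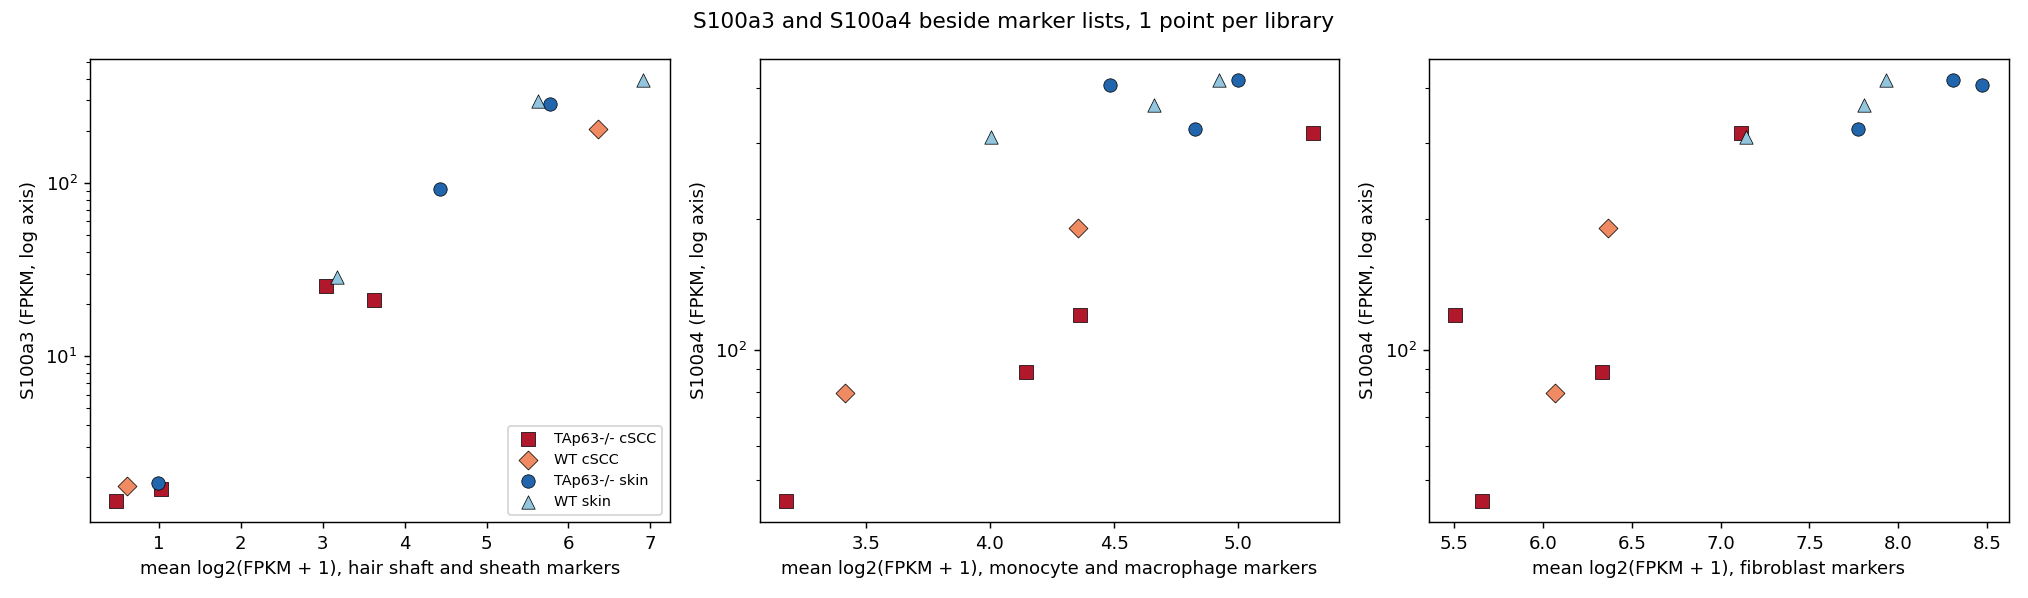
S100a3 against hair shaft and sheath markers and S100a4 against macrophage and fibroblast markers (FPKM on a log axis, list means as log2(FPKM + 1)), 1 point per library. S100a3 runs with hair markers in tumours and skin alike, and the lowest S100a4, 44.8 FPKM, is in the tumour with the lowest macrophage mean, 3.18.

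S100a3, a cysteine-rich protein of the hair cuticle whose arginines are converted by PADI3, varied more within groups than between them. It had 1.71, 21.1, 1.45 and 25.3 FPKM in TAp63-/- cSCC, against 1.84, 92.5 and 286 FPKM in TAp63-/- skin. WT cSCC had 1.77 and 206 FPKM, against 396, 299 and 28.7 FPKM in WT skin. Skin itself thus spanned nearly the whole range, and the groups overlapped in both genotypes. The tumour changes were -2.43 for TAp63-/- (SE 1.82, adjusted p = 0.348) and -2.67 for WT (SE 2.18, adjusted p = 0.461), and the change in TAp63-/- against WT skin was -1.85 (SE 1.92, adjusted p = 0.926).

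The hair content of a library went with S100a3. The mean log2(FPKM + 1) of 13 hair shaft and sheath markers was 1.02, 3.63, 0.481 and 3.04 in TAp63-/- cSCC, 0.613 and 6.37 in WT cSCC, 0.983, 4.43 and 5.77 in TAp63-/- skin and 6.91, 5.63 and 3.18 in WT skin. With group means subtracted, r of S100a3 with that mean was 0.984. It was also 0.93 with the list of fused S100 genes, 0.929 with the melanocyte list, 0.799 with the binding partners and 0.75 with the wound keratinocyte list. The genes most like S100a3 were the inner root sheath keratins Krt73 (0.99) and Krt28 (0.985) and the sheath protein gene Tchh (0.989). Krt73 is itself 1 of the 13 hair markers, and Tchh is a fused S100 gene. Of these hair markers, 0 of 13 passed in either tumour comparison or in skin. WT cSCC replicate 2, with 206 FPKM of S100a3, held hair RNA at the level of skin, and the part of hair follicles in S100a3 was not tested further.

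S100a7a, the mouse counterpart of psoriasin, had the lowest median over the 12 libraries, although in tumours the median of S100a3 was lower (11.4 FPKM, against 17.2 FPKM for S100a7a). It had 23.8, 8.32, 11.1 and 23.2 FPKM in TAp63-/- cSCC, against 0.123, 3.57 and 12.7 FPKM in TAp63-/- skin (1.97, SE 0.93, adjusted p = 0.137). WT cSCC had 9.21 and 35.6 FPKM, against 24.3, 8.96 and 1.30 FPKM in WT skin (1.21, SE 1.11, adjusted p = 0.517). The groups overlapped in both genotypes, and the lowest skin library was TAp63-/- skin replicate 1. Within groups S100a7a went with the wound keratinocyte mean (r = 0.968). Its r was also 0.813 with the melanocyte list, 0.784 with the fused S100 genes, 0.768 with the hair list and -0.757 with the basal keratinocyte list. The genes most like S100a7a were Sprr1b (0.966), itself a wound marker, Gjb2 (0.955), a gap junction gene, and Ero1l (0.953), an oxidase of protein folding.

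S100a6, S100a14 and S100a16 did not pass in any comparison. S100a6, calcyclin, a protein of proliferating cells, had 291, 620, 428 and 282 FPKM in TAp63-/- cSCC, against 244, 405 and 498 FPKM in TAp63-/- skin (0.07, SE 0.33, adjusted p = 0.90). WT cSCC had 817 and 566 FPKM, against 666, 558 and 433 FPKM in WT skin (0.32, SE 0.40, adjusted p = 0.643). The groups overlapped, and the genes most like S100a6 were Ube2a (0.971), Timm8a1 (0.949) and Siva1 (0.912). They overlapped as well for S100a14 and S100a16, epithelial members that can bind each other.

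S100a14 had 147, 62.8, 246 and 258 FPKM in TAp63-/- cSCC and 188 and 284 FPKM in WT cSCC, with 164.7 to 263 FPKM over the skin libraries. S100a16 had 239, 106, 239 and 199 FPKM in TAp63-/- cSCC and 138 and 289 FPKM in WT cSCC, with 95.6 to 219 FPKM over the skin libraries. TAp63-/- cSCC replicate 2 was the lowest tumour for both. The genes most like S100a14 were Glyr1 (0.982), Ap1m2 (0.972) and Pnn (0.968). Those most like S100a16 were Endou (0.976), Foxn1 (0.962), a transcription factor gene of hair and epidermis, and Gjb6 (0.956), a gap junction gene.

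Between the genotypes 0 of 10 members passed with limma. TAp63-/- skin against WT skin had 1 member, S100a11, at an unadjusted p below 0.05. So had 738 of the 14752 genes tested, and 0.0203% of all genes were called. TAp63-/- cSCC against WT cSCC had 0 members at that unadjusted level, beside 419 genes, and 0% were called. The genotype by tissue interaction had 1, again S100a11, beside 443 genes at that unadjusted level, and 0.0271% were called. The largest changes in tumours were -1.60 for S100a3 (SE 1.83), -0.82 for S100a6 (SE 0.41) and 0.80 for S100a8 (SE 1.37), each at an adjusted p of 1. With an SE of 1.37, the S100a8 difference was well within the spread between tumours.

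Of 8 further S100 genes, 4 were tested, and tumours had lower values for each. In TAp63-/- tumours all 4 fell, S100a13 by 1.13 (adjusted p = 0.00217), S100a1 by 1.81 (adjusted p = 0.0107), S100b by 1.14 (adjusted p = 0.00201) and S100a7l2. In WT tumours S100b (-0.96, adjusted p = 0.027) and S100a7l2 fell, while S100a1 (-1.43, adjusted p = 0.0946) and S100a13 (-0.76, adjusted p = 0.0638) did not pass. S100a1, a calcium sensor of muscle, had 17.2 to 61.8 FPKM in tumours and 71.9 to 141 FPKM in skin, while the summed FPKM of 6 skeletal muscle markers was 41.1 to 567 in tumours and 4579 to 9217 in skin. S100b, a marker of Schwann cells and melanocytes, had at most 2.41 FPKM, and 5 of 5 Schwann cell markers fell in each genotype. The part of muscle and nerve in these falls was not tested.

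S100a7l2 (9130204L05Rik in the table, ENSMUSG00000091175, chromosome 3, 91088137 to 91090805), a relative of S100a7a, was listed at 0 in all 4 TAp63-/- and both WT tumours. TAp63-/- skin had 171, 86.5 and 32.8 FPKM and WT skin 25.8, 57.5 and 37.7 FPKM. Its adjusted p was 1.02e-05 in TAp63-/- and 0.000373 in WT tumours. A listed 0 was not taken to show absence, since read depth is unknown. For 367 symbols a library at 0 has a partner in its own group with at least 5 FPKM. Real differences between libraries can give this too, so that count does not decide what a 0 means.

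The binding partners of the S100 proteins went in both directions. Of 16 tested, 4 rose and 4 fell in TAp63-/- tumours, and 2 rose and 1 fell in WT tumours. Over all genes 13% rose and 14.2% fell in TAp63-/- tumours, and 4.66% rose and 6.77% fell in WT tumours. The same shares apply to the fused S100 genes described next. Fabp5, the epidermal fatty acid-binding protein that associates with S100A7, rose by 3.13 in TAp63-/- tumours (adjusted p = 8.17e-05) and by 2.90 in WT tumours (adjusted p = 0.00137), with 2545 to 4510 FPKM in the 6 tumours and 227 to 573 in skin. Tgm3, a transglutaminase that crosslinks envelope proteins, rose by 4.05 (adjusted p = 0.0131) and 4.28 (adjusted p = 0.0418), and Anxa6 fell by 1.79 (adjusted p = 0.000402) and 1.17 (adjusted p = 0.0264). For Anxa2, the partner of S100A10 and named here for that role after its values were seen, the changes were 0.60 in TAp63-/- tumours (adjusted p = 0.117) and 0.46 in WT tumours (adjusted p = 0.384).

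The fused S100 genes, which join an S100 domain to long repeats in the cornified layer, split as well. Flg2 fell by 4.80 in TAp63-/- tumours (adjusted p = 2.32e-05) and by 3.42 in WT tumours (adjusted p = 0.00179). Rptn, repetin, rose by 2.64 (adjusted p = 0.018) and 3.49 (adjusted p = 0.0234), and Hrnr fell in TAp63-/- tumours (-1.84, adjusted p = 0.0158), so that 1 of 7 rose and 2 fell in TAp63-/- and 1 rose and 1 fell in WT tumours.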

How the data were processed

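The 12 RNA-seq libraries fall into 4 groups by their labels. The submitters' processing notes name TopHat2 2.0, Cufflinks 2.0 and mm10. The authors' deposited table is read as FPKM, since Cufflinks gives that unit and no header names one. In every library 100% of the sorted deposited FPKM values of 1 or more lay within 1% of common values, so quantile normalization was inferred; read depth is unknown, and no counting interval is given. Entries of 1 symbol were summed, and the 14752 genes reaching 1 FPKM in 2 or more libraries were tested. Starts are counted from 1. Values were taken as log2(FPKM + 1), so changes of low genes are understated. The fit was by limma 3.58.1 (R 4.3.3, variance trend, Benjamini-Hochberg adjustment over all tested genes, two-sided, called below 0.05). Genotype comparisons within a tissue used its 6 libraries, tumour-skin comparisons and the interaction all 12. The procedure was tested on simulated data. Alternatives were a pseudocount of 0.1, no filter or a 5 FPKM filter, median-of-ratios rescaling, array weights, other sets of libraries, sex as a covariate and each library left out. The 10 members and the 20 gene lists (159 of 163 genes present, 5 through an identifier or synonym) were chosen with earlier results of these data known. Besides the members, named genes were the 3 with the smallest p of a list in a comparison and a defining marker listed at 0. Also named were the 3 genes most like a member, by Pearson r with group means subtracted, with a mean of at least 5 FPKM. Symbols that begin with S100 were left out of that search, but fused S100 genes were not. Exceptions to these rules are stated.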

Additional observations from a re-analysis of the deposited data

Results flagged for a closer look

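S100a8 in TAp63-/- cSCC replicate 1 stood apart from its group on the FPKM scale. The gap between that library (15539 FPKM) and the next highest of the 4 (2748 FPKM) was 12791 FPKM. It was 0.841 of the whole range of the group, above the 95% critical value of Dixon for 4 samples. Chance alone passes about 1 in 20 such groups only if the values are normally distributed, and 10 genes were looked at. The ratio was taken on FPKM and not on the log2(FPKM + 1) values used for the fits. The flag thus holds for FPKM only, and whether this library stands apart on the log2 scale was not tested.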

How the results depend on the processing

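In WT cSCC against WT skin, 0 members were called without WT cSCC replicate 1, 2 at most with any 1 of the 5 WT libraries left out and 3 with all, and 464 genes were called without that library, against 1687. With any 1 skin library of WT left out, 748 to 994 genes were called. In TAp63-/- cSCC against TAp63-/- skin 2 to 3 members were called with any 1 of its 7 libraries left out, and 2 to 4 in the other settings, where WT gave 2 to 3. With sex as a covariate, which rests on TAp63-/- cSCC replicate 1, 1939 genes were called for TAp63-/- (4017 without it) and 255 for WT. Without TAp63-/- skin replicate 1 the TAp63-/- count was 2432. Genotype comparisons called 0 members in each setting; over all genes they called 3 to 8 in skin and 0 to 11 in tumours. Without a filter on low values the adjusted p was 0.0625 for S100a8 in WT and 0.0596 for S100a4 in TAp63-/- tumours, and that of S100a4 was 0.0675 in a fit on those 2 groups alone. With sex as a covariate S100a11 in WT tumours had 0.0533. S100a11 in TAp63-/- tumours passed with a 5 FPKM filter (0.0472) and array weights (0.041). S100a8 and S100a9 in TAp63-/- tumours stayed called in every setting tried (adjusted p up to 0.0156 and 0.00893). The causes were not tested. No paired analysis was possible because replicate numbers were given in accession order and pair no samples. Read depth is unknown, so no counting error stands behind a value.

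No member that reversed its sign was called in the comparison concerned. With array weights the log2 change turned to S100a8 0.29 in TAp63-/- skin against WT skin, and to S100a6 -0.23, S100a14 0.018 in TAp63-/- cSCC against TAp63-/- skin, and to S100a7a 0.0076 in TAp63-/- cSCC against WT cSCC. With a pseudocount of 0.1 the log2 change turned to S100a9 -0.069 in TAp63-/- skin against WT skin. With sex as a covariate the log2 change turned to S100a6 -0.21, S100a10 -0.52, S100a14 -0.045 in WT cSCC against WT skin, and to S100a6 -0.33 in TAp63-/- cSCC against TAp63-/- skin, and to S100a8 -0.14, S100a9 -0.23 in TAp63-/- cSCC against WT cSCC, and to S100a8 -0.087, S100a9 -0.28 in the genotype by tissue interaction. With median-of-ratios rescaling the log2 change turned to S100a6 -0.0074 in TAp63-/- cSCC against TAp63-/- skin. With 1 library left out, TAp63-/- skin against WT skin ranged over -3.23 to 0.10 for S100a3, -0.043 to 0.19 for S100a4, -1.24 to 0.98 for S100a8, -0.65 to 0.95 for S100a9, -0.49 to 0.051 for S100a16. With 1 library left out, WT cSCC against WT skin ranged over -5.78 to 0.44 for S100a3, -0.54 to 0.78 for S100a10, -0.23 to 0.36 for S100a14, -0.23 to 0.83 for S100a16. With 1 library left out, TAp63-/- cSCC against TAp63-/- skin ranged over -0.22 to 0.29 for S100a6, -0.54 to 0.13 for S100a14. With 1 library left out, TAp63-/- cSCC against WT cSCC ranged over -4.72 to 1.51 for S100a3, -0.78 to 0.48 for S100a4, -1.18 to 0.66 for S100a7a, -0.14 to 1.71 for S100a8, -0.23 to 1.64 for S100a9, -1.18 to 0.13 for S100a10, -0.59 to 0.13 for S100a11, -0.63 to 0.43 for S100a16. With 1 library left out, the genotype by tissue interaction ranged over -2.87 to 3.35 for S100a3, -0.85 to 0.41 for S100a4, -0.55 to 0.010 for S100a6, -0.19 to 1.68 for S100a7a, -0.18 to 2.04 for S100a8, -0.38 to 1.58 for S100a9, -1.23 to 0.082 for S100a10, -0.66 to 0.067 for S100a14, -0.41 to 0.65 for S100a16.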

Other observations

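Keratinocyte lists moved in different directions. Of 6 basal keratinocyte markers 4 rose and 1 fell in TAp63-/- tumours, and 1 rose and 1 fell in WT tumours. Krt14, the basal keratin, rose by 2.89 in TAp63-/- tumours (adjusted p = 0.00079) and by 3.06 in WT tumours (adjusted p = 0.00467), while Krt15 fell by 4.46 and 3.64 (adjusted p = 6e-05 and 0.00211). Of 7 suprabasal markers 4 fell in TAp63-/- tumours and 1 in WT tumours, and 0 rose. Krt77, a keratin of the sweat duct and upper epidermis, fell by 8.12 and 5.94 (adjusted p = 2.48e-05 and 0.00167).

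Markers of muscle, fat, pigment and Langerhans cells included genes that fell in tumours. Of 6 skeletal muscle markers 6 fell in TAp63-/- and 5 in WT tumours, of 5 adipocyte markers 4 and 3, of 5 melanocyte markers 5 and 1, and of 4 Langerhans and dendritic markers 2 and 1, with 0 rising. Over all genes 14.2% fell in TAp63-/- tumours and 6.77% in WT tumours. Of 5 endothelial markers 1 fell in TAp63-/- tumours, Tek (-1.14, adjusted p = 0.00699), and 0 in WT tumours, and of 5 T cell markers 0 passed in either. The endothelial medians were 0.261 in TAp63-/- and 0.121 in WT tumours, and the T cell medians -0.1 and 0.391.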
